A study of Mus musculus with 9 samples.

Results

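A set of 10 genes that restrain mitogen-activated protein kinase (MAPK) signaling was examined across resting, activated and TRAIL-treated murine CD4+ T cells. The group is a list of names and not a selection by a cutoff on measured values, although earlier results of these data were known when it was drawn up. It holds the phosphatase genes Dusp1, Dusp2, Dusp4, Dusp5, Dusp6 and Dusp10, the Sprouty genes Spry1 and Spry2, and the SPRED genes Spred1 and Spred2. They are 10 of the 55487 genes listed, and all 10 passed the filter on low values that left 15536 genes for testing. RNA-seq was done on splenic CD4+ T cells, enriched by negative selection from wild-type C57BL/6 mice (Trail-r+/+, young females according to the methods), in 3 groups of 3 libraries. Cells of the medium group were kept in culture medium without antibody or TRAIL, for a time that the labels do not give. Stimulated cells were cultured for 24 h with Abs against CD3, a part of the T cell receptor (TCR), at 3 µg/ml and against its costimulatory receptor CD28 at 2 µg/ml. TRAIL-treated cells received the same Abs for the same time together with TRAIL, a death ligand related to the Fas ligand, at 10 µg/ml. All groups share the strain, the genotype and the medium, and no receptor-deficient cells or TRAIL without Abs are among the libraries. The labels do not say whether the 3 libraries of a group came from separate mice or cultures, so the p-values measure the spread between these libraries, which may be technical.

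Levels are TPM (transcripts per 1000000 transcripts of the library), an abundance already divided by transcript length, so that genes can be set beside each other within a library. TPM values are shares of a fixed total of 1000000 in each library, and the sequencing depth behind them is unknown. Groups were compared with limma on log2(TPM + 1), and a gene was called changed when its Benjamini-Hochberg adjusted p over all genes tested was under 0.05 and its log2 difference was at least 1 in size. A difference on this scale is smaller than that of the plain TPM values for genes with few TPM, so the ratio of group means is also given where it helps. With 3 libraries against 3, an exact permutation test of a single value cannot go below p = 0.1, so no such test is given.

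Engagement of the TCR loads RAS with GTP through RASGRP1 and SOS, and RAS then drives the RAF, MEK and ERK kinases, while JNK and p38 are activated by parallel branches. The dual-specificity phosphatases (DUSPs) of the MAP kinase phosphatase family switch MAP kinases off by removing phosphate from both the threonine and the tyrosine of the activation loop. Many of these phosphatases are themselves induced by MAPK activity, which makes them negative feedback regulators. Sprouty and SPRED proteins act further upstream, between receptor, RAS and RAF, and SPRED proteins bring the RAS GTPase-activating protein neurofibromin to the membrane.

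The start regions of 4 members are shown because their transcripts moved most strongly and in different patterns: Dusp1, Dusp5 and Dusp10 were higher with TRAIL than in both other groups, and Spry1 was induced by stimulation but lower with TRAIL. Each run holds the 250 bases before and the 50 bases after the transcription start given by RefSeq (GRCm38.p6), 5′ to 3′ on the strand of the gene, and capitals mark motif matches. The Dusp1 window is chr17:26508423-26508722 on the minus strand, the Dusp5 window chr19:53528895-53529194 on the plus strand, the Dusp10 window chr1:184034131-184034430 on the plus strand and the Spry1 window chr3:37639697-37639996 on the plus strand.
Dusp1: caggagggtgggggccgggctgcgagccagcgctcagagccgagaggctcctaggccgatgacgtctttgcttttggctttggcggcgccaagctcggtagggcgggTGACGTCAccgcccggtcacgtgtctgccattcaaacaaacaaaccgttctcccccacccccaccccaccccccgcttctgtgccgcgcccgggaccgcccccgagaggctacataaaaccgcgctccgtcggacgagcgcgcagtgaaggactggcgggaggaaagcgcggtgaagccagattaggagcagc
Dusp5: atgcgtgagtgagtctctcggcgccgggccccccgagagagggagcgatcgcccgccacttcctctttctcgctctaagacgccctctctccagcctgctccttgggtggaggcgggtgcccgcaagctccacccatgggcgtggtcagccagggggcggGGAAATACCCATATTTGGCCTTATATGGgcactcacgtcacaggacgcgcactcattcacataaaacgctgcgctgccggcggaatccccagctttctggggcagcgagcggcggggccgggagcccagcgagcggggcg
Dusp10: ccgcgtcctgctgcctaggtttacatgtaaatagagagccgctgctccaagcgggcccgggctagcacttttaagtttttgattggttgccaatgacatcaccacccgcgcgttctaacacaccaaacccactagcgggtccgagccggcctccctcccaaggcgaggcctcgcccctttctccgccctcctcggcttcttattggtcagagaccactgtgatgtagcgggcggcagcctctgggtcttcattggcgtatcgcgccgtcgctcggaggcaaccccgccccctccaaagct
Spry1: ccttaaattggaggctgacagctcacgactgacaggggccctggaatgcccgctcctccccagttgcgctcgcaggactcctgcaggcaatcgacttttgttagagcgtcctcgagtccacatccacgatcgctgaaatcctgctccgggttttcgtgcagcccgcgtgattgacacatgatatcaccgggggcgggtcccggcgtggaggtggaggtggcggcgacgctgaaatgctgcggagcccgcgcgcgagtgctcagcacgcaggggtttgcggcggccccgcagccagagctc

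Windows were found for 9 of the 10 members, Dusp4 being absent from the table used. In the Dusp1 window the cyclic AMP response element TGACGTCA lay from -143 to -136 relative to the start. The Dusp5 window held 2 adjacent CArG boxes, the binding element of serum response factor, CCATATTTGG from -82 to -73 and CCTTATATGG from -72 to -63. In the Dusp2 window the EGR motif GCGNGGGCG matched as GCGGGGGCG from -98 to -90. No other match was found in the 9 windows for these motifs, for AP-1 (TGANTCA), ETS (CCGGAAG) and heat shock (GAANNTTC) elements, or for the consensus NF-kB site. Another form of the NF-kB site, which was searched first and is neither wider nor narrower by its letters, matched the Dusp5 window on the minus strand from -90 to -81 and overlapped the first CArG box there. Among all 32851 windows of this length, searched likewise on both strands, 1.79% held the cyclic AMP response element, 1.63% a CArG box, 5.55% the EGR motif, 7.81% AP-1, 8.86% ETS, 7.86% heat shock, 8.46% the consensus NF-kB site and 4.79% the other form. These matches describe the letters of the windows and are no evidence that a factor was bound.

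By annotation all 10 members are protein-coding, and the windows differ in what they cover. The Dusp1 window lies wholly within the span of the gene, since the annotation holds longer transcripts that begin upstream, and 97 of its 300 bases are exonic. In the Dusp10 window, which also lies wholly within the gene, 50 of the 300 bases are exonic and the others are intron of a longer transcript. The last 50 bases of the Spry1 window and 86 bases of the Dusp5 window are exonic, and the others lie upstream of the annotated gene. The GC content of the 9 windows ran from 57.0% to 72.3%, with a median of 52.7% over all windows.

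All 10 genes together held a similar share of the transcripts in medium and in stimulated cells, and a far larger share with TRAIL. Their summed level was 577 ± 45.5 TPM (SD, n = 3) in medium, 581 ± 12.6 TPM in stimulated cells and 1940 ± 155 TPM with TRAIL. The 3 TRAIL-treated libraries, from 1770 to 2074 TPM, lay above all 6 others, of which the highest had 627 TPM. The make-up of that sum differed in each group. In medium Dusp2 made up 35.3% ± 1.19 and Dusp1 31.2% ± 1.85 of it. In stimulated cells Dusp5 made up 41.7% ± 1.92 and Dusp2 21.4% ± 3.63, while Dusp1 held 3.10% ± 0.135. With TRAIL, Dusp10 made up 33.4% ± 1.31, Dusp5 27.6% ± 1.19 and Dusp1 18.9% ± 0.985.

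**Figure D1:**
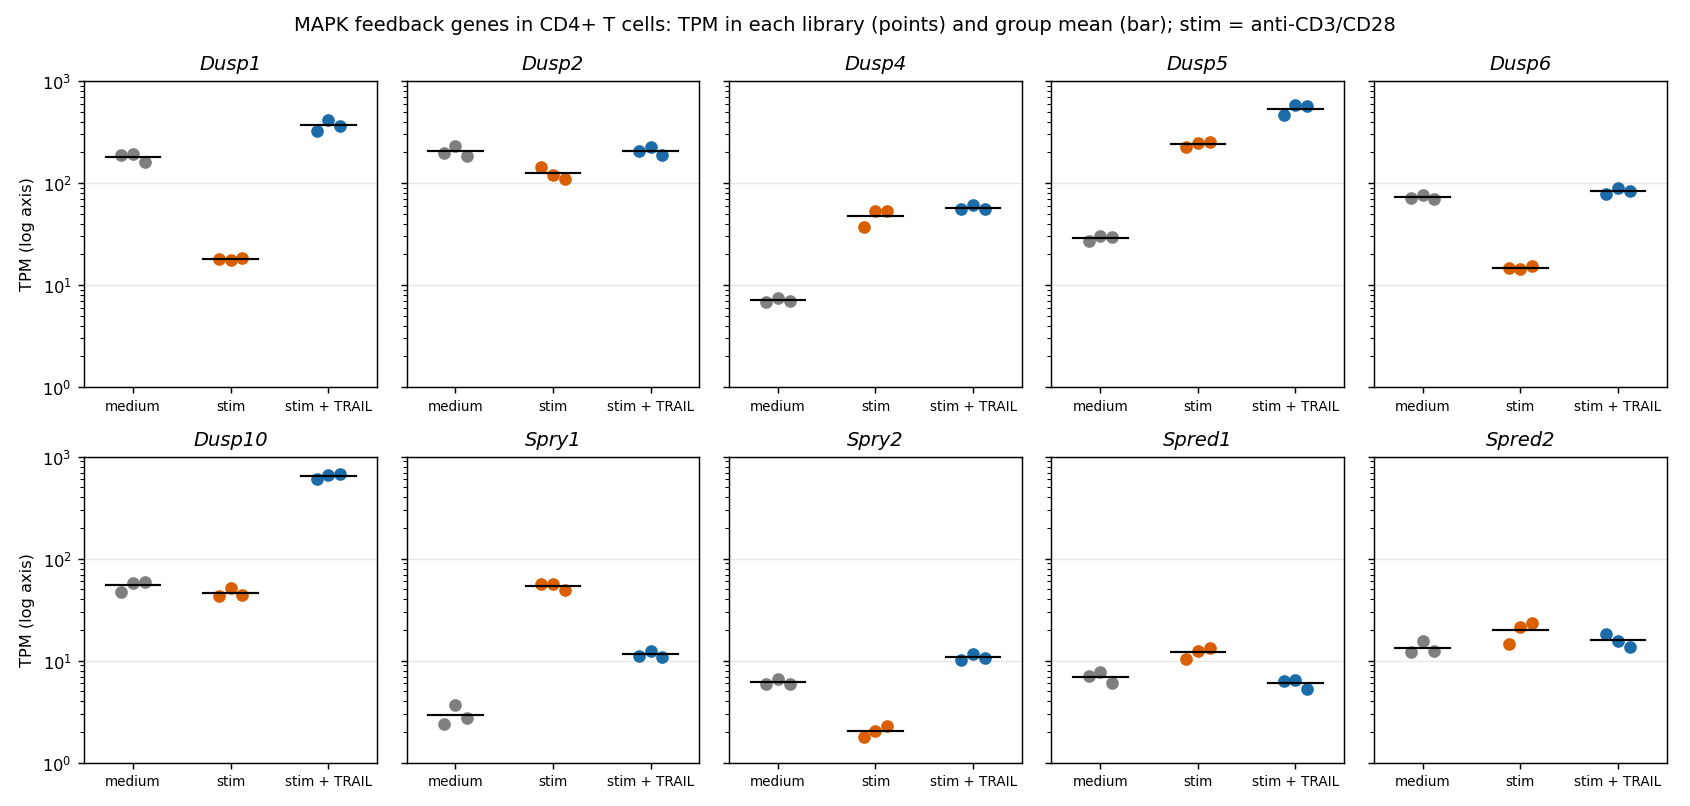
TPM (log axis) of each of the 10 genes, 1 panel a gene. Points are the 3 libraries of medium, stimulated (stim) and TRAIL-treated (stim + TRAIL) cells and black bars the group means. Dusp1, Dusp6 and Spry2 dip in stimulated cells, Dusp10 is highest with TRAIL, and Spry1 peaks in stimulated cells.

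**Figure D2:**
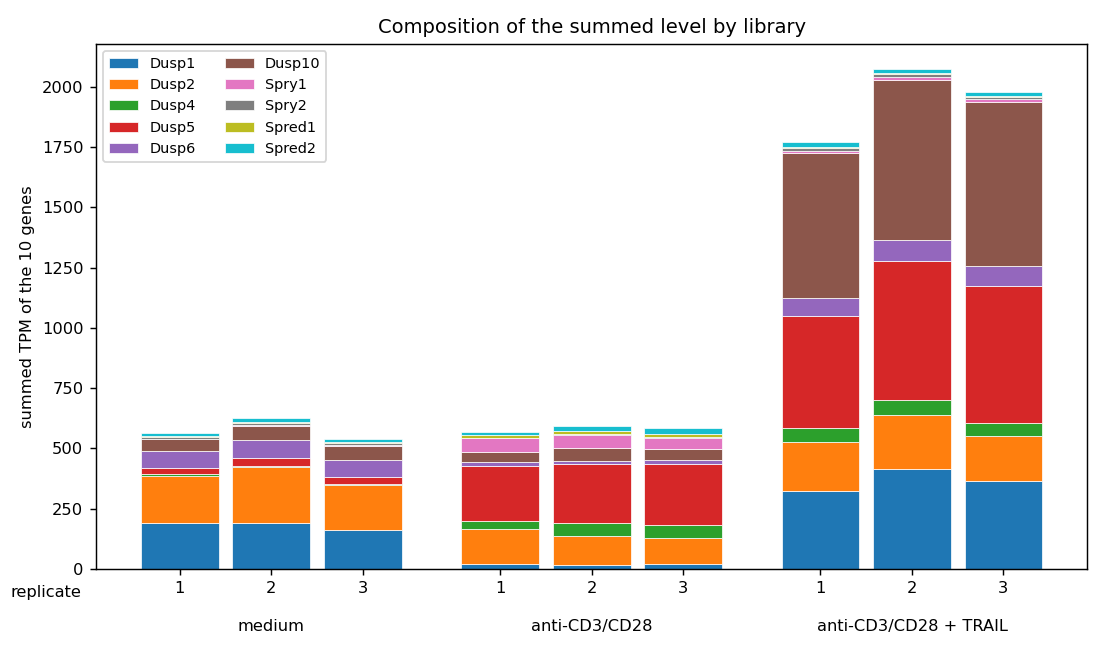
Summed TPM of the 10 genes in each of the 9 libraries, as bars from 0 stacked by gene. The medium and stimulated bars reach 539 to 627 TPM with different genes in them, and the TRAIL-treated bars reach 1770 to 2074 TPM, mostly Dusp10, Dusp5 and Dusp1.

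Of the 10 genes, 6 were called changed on stimulation, 3 higher (Dusp4, Dusp5 and Spry1) and 3 lower (Dusp1, Dusp6 and Spry2). Among all genes tested 31.9% were called in this comparison, 12.4% higher and 19.5% lower. With TRAIL against Abs alone 6 of the 10 were called, 5 higher (Dusp1, Dusp5, Dusp6, Dusp10 and Spry2) and 1 lower (Spry1), beside 30.9% of all genes, 16.6% higher and 14.3% lower. With TRAIL against medium 5 were called, all of them higher (Dusp1, Dusp4, Dusp5, Dusp10 and Spry1), beside 4.62% of all genes, 2.49% higher and 2.13% lower. The medians of the 10 log2 differences were 0.14, 0.93 and 0.87 in the 3 comparisons, and those of all genes tested were -0.151, 0.011 and -0.182. Dusp1, Dusp5 and Dusp10 were called higher with TRAIL against both other groups, which held for 1.35% of all genes. The comparisons share libraries and are not independent of each other.

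**Figure D3:**
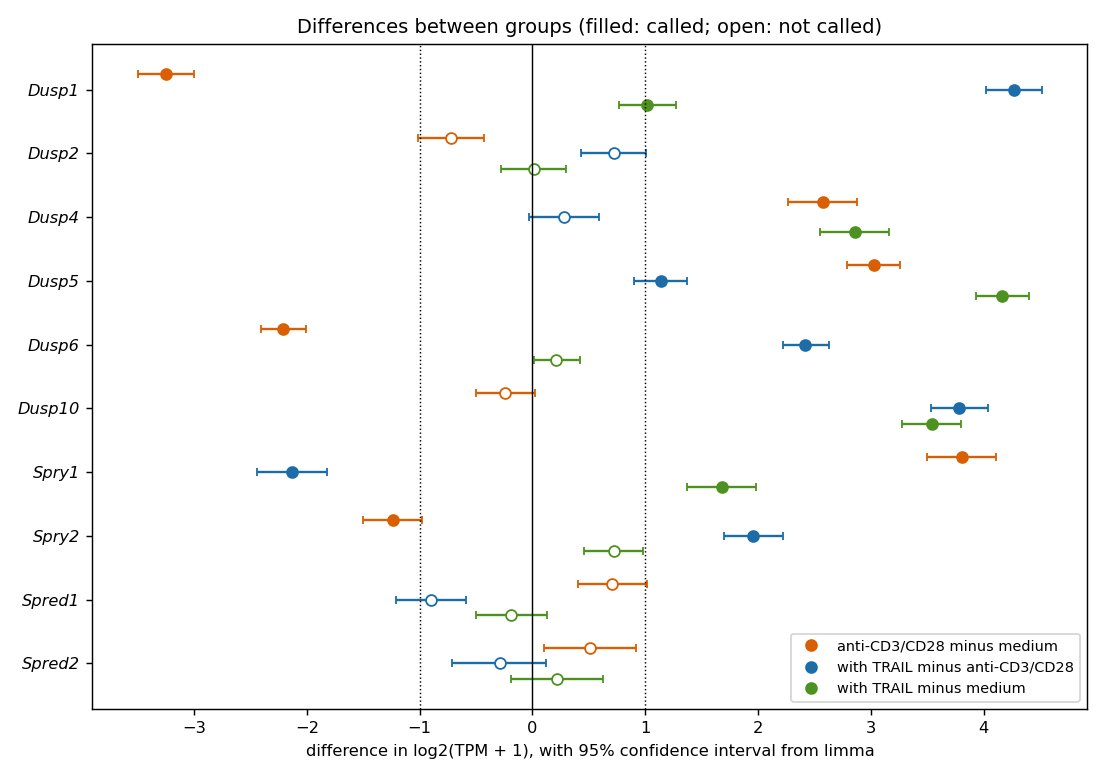
Differences in log2(TPM + 1) of the 10 genes in the 3 comparisons, with 95% confidence intervals from limma as bars, filled points for called genes and dotted lines at the fold threshold. In the comparison of TRAIL-treated with stimulated cells Dusp1 stands at 4.27 and Dusp10 at 3.78, with Spry1 at -2.13.

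Dusp1, which encodes a nuclear phosphatase acting on p38, JNK and ERK and is a classical immediate early gene, fell strongly on stimulation and was high with TRAIL. Its level was 188, 191 and 161 TPM in medium, 18.1, 17.5 and 18.5 TPM in stimulated cells and 323, 415 and 363 TPM with TRAIL, so no 2 groups overlapped. The mean in stimulated cells was 9.99-fold lower than in medium (log2 difference -3.25, SE 0.11, limma adjusted p = 4.0e-09). With TRAIL it was 20.4-fold higher than with Abs alone (log2 difference 4.27, SE 0.11, limma adjusted p = 1.0e-09), the largest rise among the 10 genes. Against medium the ratio was 2.04 (log2 difference 1.02, SE 0.11, limma adjusted p = 1.7e-04), just past the threshold, and the call was lost without medium replicate 3 (log2 difference 0.94) and without TRAIL replicate 2 (log2 difference 0.93).

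Dusp10, which encodes a phosphatase of JNK and p38, differed from Dusp1 in that medium and stimulated cells overlapped. Medium cells had 47.1, 58.3 and 59.0 TPM and stimulated cells 42.9, 51.4 and 44.0 TPM (log2 difference -0.24, 95% confidence interval -0.50 to 0.02, limma adjusted p = 0.0884). The TRAIL-treated libraries had 599, 662 and 680 TPM, each above all 6 others. The mean was 14.0-fold that of stimulated cells (log2 difference 3.78, SE 0.12, limma adjusted p = 2.8e-09) and 11.8-fold that of medium (log2 difference 3.54, SE 0.12, limma adjusted p = 7.4e-08). Of the 10 genes, Dusp10 ranked 4 by mean level in medium and 1 with TRAIL.

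Dusp5, a nuclear phosphatase selective for ERK, stepped up from group to group without overlap. It had 26.8, 30.5 and 29.3 TPM in medium, 227, 245 and 255 TPM in stimulated cells and 465, 576 and 566 TPM with TRAIL. Stimulation raised the mean 8.39-fold (log2 difference 3.03, SE 0.11, limma adjusted p = 4.6e-09), and the mean with TRAIL was a further 2.21-fold higher (log2 difference 1.14, SE 0.11, limma adjusted p = 5.7e-06). Against medium the TRAIL-treated mean was 18.6-fold higher (log2 difference 4.16, SE 0.11, limma adjusted p = 2.5e-08).

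Dusp4, which encodes a nuclear phosphatase induced by ERK activity, rose on stimulation as Dusp5 did, but its difference between TRAIL and Abs alone was not called. Its levels were 6.85, 7.52 and 6.92 TPM in medium, 37.3, 52.8 and 53.4 TPM in stimulated cells and 55.7, 60.7 and 56.3 TPM with TRAIL. The rise on stimulation was 6.74-fold in the mean (log2 difference 2.58, SE 0.14, limma adjusted p = 8.3e-08). TRAIL-treated and stimulated libraries did not overlap, yet the log2 difference of 0.28 had an interval from -0.03 to 0.59 (limma adjusted p = 0.0961). Against medium the TRAIL-treated mean was 8.12-fold higher (log2 difference 2.86, SE 0.14, limma adjusted p = 6.9e-07).

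Dusp6, a cytoplasmic phosphatase selective for ERK, took the course of Dusp1 at lower levels, apart from its comparison of TRAIL with medium. It had 70.9, 75.6 and 70.4 TPM in medium, 14.8, 14.3 and 15.5 TPM in stimulated cells and 78.0, 90.0 and 84.2 TPM with TRAIL. Its mean was 4.87-fold lower in stimulated cells than in medium (log2 difference -2.21, SE 0.09, limma adjusted p = 1.3e-08). With TRAIL it was 5.67-fold higher than with Abs alone (log2 difference 2.42, SE 0.09, limma adjusted p = 8.4e-09). The difference between TRAIL and medium, 0.21 on the log2 scale with an interval from 0.01 to 0.42, was not called (limma adjusted p = 0.0956).

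Dusp2, a nuclear phosphatase known from activated lymphocytes, was abundant throughout and no comparison of it was called. Its levels were 197, 230 and 185 TPM in medium, 145, 119 and 109 TPM in stimulated cells and 204, 224 and 187 TPM with TRAIL. Stimulated libraries lay below all 6 others, with log2 differences of -0.72 against medium (SE 0.13, limma adjusted p = 6.6e-04) and 0.72 for TRAIL against Abs alone (SE 0.13, limma adjusted p = 6.2e-04), both short of the fold threshold. TRAIL-treated and medium libraries overlapped, with a log2 difference of 0.01 and an interval from -0.28 to 0.30.

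The Sprouty genes went in opposite directions in both comparisons with stimulated cells. Spry1 had 2.39, 3.70 and 2.77 TPM in medium, 56.4, 56.6 and 49.1 TPM in stimulated cells and 11.1, 12.6 and 11.0 TPM with TRAIL. Its rise on stimulation was 18.3-fold in the mean (log2 difference 3.81, SE 0.14, limma adjusted p = 5.4e-09), the largest of the 10 genes in that comparison. With TRAIL the mean was 4.67-fold lower than with Abs alone (log2 difference -2.13, SE 0.14, limma adjusted p = 3.6e-07) and remained 3.91-fold above medium (log2 difference 1.68, SE 0.14, limma adjusted p = 2.5e-05). Spry2 had 5.87, 6.70 and 5.97 TPM in medium, 1.79, 2.04 and 2.31 TPM in stimulated cells and 10.1, 11.7 and 10.6 TPM with TRAIL. Its groups did not overlap either, and the lowest were the stimulated cells. The mean fell 3.02-fold on stimulation (log2 difference -1.24, SE 0.12, limma adjusted p = 6.2e-06), a call lost with a pseudocount of 5 (log2 difference -0.67) and with quantile normalization (log2 difference -0.85). With TRAIL it was 5.29-fold higher than with Abs alone (log2 difference 1.96, SE 0.12, limma adjusted p = 2.3e-07). Against medium its log2 difference of 0.72 (limma adjusted p = 0.00174) was short of the fold threshold.

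Neither SPRED gene was called in any comparison. Spred1 had 7.13, 7.84 and 6.06 TPM in medium, 10.4, 12.5 and 13.4 TPM in stimulated cells and 6.35, 6.52 and 5.24 TPM with TRAIL. The stimulated libraries lay above all 6 others, with log2 differences of 0.71 against medium (limma adjusted p = 0.00112) and -0.90 for TRAIL against Abs alone (limma adjusted p = 2.4e-04). Spred2 had 12.1, 15.7 and 12.4 TPM in medium, 14.6, 21.6 and 23.3 TPM in stimulated cells and 18.4, 15.6 and 13.5 TPM with TRAIL, and all of its groups overlapped. Its log2 difference on stimulation was 0.51 (interval 0.10 to 0.92, limma adjusted p = 0.0311) and that of TRAIL against Abs alone was -0.29 (interval -0.71 to 0.12, limma adjusted p = 0.186).

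Ranked by mean level within a group, the order of the 10 genes changed between conditions. In medium it ran Dusp2, Dusp1, Dusp6, Dusp10, Dusp5, Spred2, Dusp4, Spred1, Spry2 and Spry1. The libraries of Dusp2 and Dusp1 overlapped, as did those of Dusp4, Spred1 and Spry2, each with its neighbour. In stimulated cells the order was Dusp5, Dusp2, Spry1, Dusp4, Dusp10, Spred2, Dusp1, Dusp6, Spred1 and Spry2, in which neighbours overlapped from Spry1 to Dusp10 and between Spred2 and Dusp1, and Spred2 also overlapped Dusp6. With TRAIL it was Dusp10, Dusp5, Dusp1, Dusp2, Dusp6, Dusp4, Spred2, Spry1, Spry2 and Spred1, and Spry1 and Spry2 overlapped.

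Across the 9 libraries, which form 3 groups and so hold mainly the group differences, the log2 levels of Dusp1 correlated with those of Dusp6 and of Spry2 (Pearson r = 0.99 for each pair), and Dusp4 with Dusp5 (r = 0.98). Dusp1 and Spred1 ran opposite to each other (r = -0.94), as did Spry1 and Dusp6 (r = -0.85).

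Among 10446 tested genes that reached a mean of 10 TPM in some group, the 3 most like each member were named by Pearson r over the same 9 libraries. For Dusp1 these were the transcription factor genes Klf4 (r = 0.999) and Sox4 (0.998) and the antiproliferative gene Tob1 (0.998). Klf4 averaged 33.0 TPM in medium, 3.48 TPM in stimulated cells and 65.8 TPM with TRAIL. For Dusp10 they were Gch1 (r = 0.998), which encodes the first enzyme of tetrahydrobiopterin synthesis, Ccdc117 (0.997) and Rrad (0.997), a RAS-related GTPase gene. Gch1 averaged 10.1, 9.30 and 44.9 TPM in the same order of groups. Dusp5 was nearest to the AP-1 gene Fosl2 (r = 0.998), to Egr2 (0.997) and to Ddit3 (0.994), and Dusp4 to the orphan nuclear receptor gene Nr4a3 (0.999), to Ciart (0.994) and to Atf3 (0.992). Nr4a3 averaged 7.58, 155 and 217 TPM.

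Dusp6 was most like the kinase gene Sgk1 (r = 0.999), Hexim1 (0.999) and Arl4d (0.999). Spry1 was most like the amino acid transporter gene Slc3a2 (r = 0.998), the glucose transporter gene Slc2a1 (0.997) and the cytokine gene Lif (0.997), and Slc3a2 averaged 95.9 TPM in medium, 485 TPM in stimulated cells and 196 TPM with TRAIL. Spry2 was most like Myb (r = 0.997), Rasl11b (0.997) and Rasgef1b (0.997). For Spred1 the 3 were Atp2a2 (r = 0.992), Slc12a4 (0.992) and Hyou1 (0.990), for Spred2 Usp10 (0.979), Ccnk (0.976) and Paf1 (0.972), and for Dusp2 Trav15-1-dv6-1 (0.979), Mmd (0.979) and Trbj2-5 (0.976). These likenesses have no p-value, since each is the best of many over the same 3 groups.

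Because the cells were enriched and not sorted, markers of other cell types were measured in the same libraries. In bulk RNA, fewer cells of a type and less RNA per cell cannot be told apart. The 8 T cell markers, among them the CD3 genes and Cd4, summed to 3539 to 3798 TPM in medium, 3332 to 3387 TPM in stimulated cells and 3523 to 3827 TPM with TRAIL. On stimulation 1 of the 8 was called higher and 1 lower, while none was called in the other comparisons. Single markers moved against each other between medium and stimulated cells. Cd2 had means of 392 and 839 TPM, and Cd4 had means of 384 and 220 TPM, a fall short of the fold threshold. The 14 myeloid markers summed to 2274 to 2514, 86.4 to 102 and 1658 to 1894 TPM in the same order, and all 14 were called lower on stimulation and higher with TRAIL against Abs alone. The 10 B cell markers summed to 2404 to 2514, 198 to 219 and 997 to 1132 TPM, with all 10 called lower on stimulation and 9 higher with TRAIL against Abs alone. The 7 erythroid markers summed to 2137 to 2585, 24.8 to 39.6 and 619 to 669 TPM, with all 7 called in each of these comparisons, and Slc4a1, the anion exchanger gene of red cells, was listed at 0.0001 TPM in every stimulated library.

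Dusp1, Dusp6 and Spry2 thus moved in the same direction as the myeloid, B cell and erythroid lists, and as 3 of the 5 NK cell markers, in both comparisons with stimulated cells, and the part of those cells in these differences was not tested. Dusp4, Dusp5 and Spry1 rose on stimulation while the same lists fell, and Dusp10 had overlapping libraries in medium and stimulated cells. With TRAIL against Abs alone, however, Dusp5 and Dusp10 were called higher, the direction of those lists, and this too was not tested. Against medium, where Dusp1, Dusp4, Dusp5, Dusp10 and Spry1 were called higher with TRAIL, none of the myeloid, B cell and erythroid markers was called higher, 7 of the 10 B cell and all 7 erythroid markers were called lower, and 0 of the 14 myeloid markers was called. The 5 NK cell markers summed to 230 to 298 TPM in medium, 221 to 291 TPM in stimulated cells and 86.1 to 90.5 TPM with TRAIL. Of these 5, 3 were called lower on stimulation, 3 were called higher and 1 lower with TRAIL against Abs alone, and 4 were called lower with TRAIL against medium. The sum in stimulated cells was mostly Gzma. Ncr1, Klrb1c and Klra8 moved in the direction of the myeloid markers in both comparisons with stimulated cells. With TRAIL against medium that likeness did not hold, since Ncr1 averaged 40.1 TPM in medium and 8.44 TPM with TRAIL, while no myeloid marker was called. The 2 CD8 markers summed to 110 to 118, 94.2 to 105 and 46.9 to 49.4 TPM. The 8 housekeeping genes summed to 11590 to 12049, 11713 to 12652 and 8728 to 9745 TPM. Of these 8, 3 were called higher on stimulation, 2 were called lower with TRAIL against Abs alone, and 0 were called with TRAIL against medium.

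**Figure D4:**
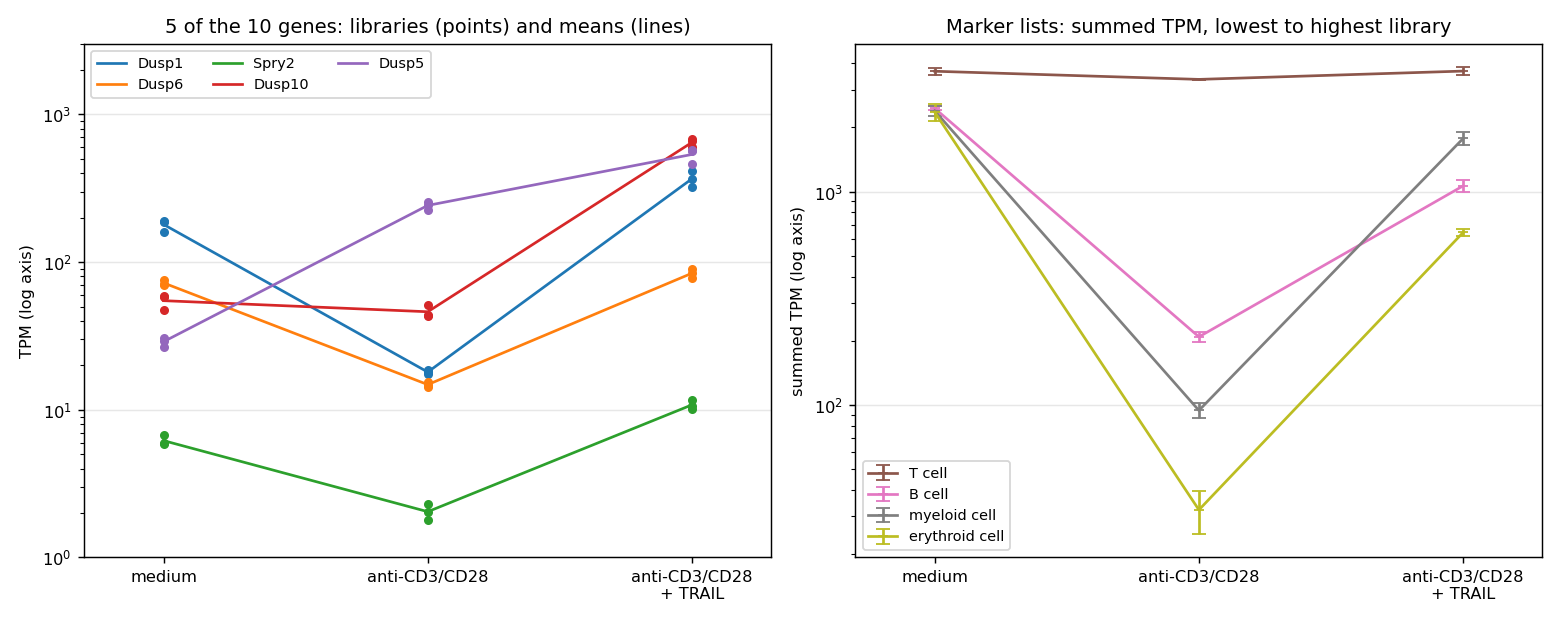
Left, TPM (log axis) of Dusp1, Dusp6, Spry2, Dusp10 and Dusp5 by group, with libraries as points and lines joining the means. Right, summed TPM (log axis) of the T cell, B cell, myeloid and erythroid markers, with bars from the lowest to the highest of the 3 libraries and lines joining their midpoints. The B cell, myeloid and erythroid sums drop in stimulated cells, as do Dusp1, Dusp6 and Spry2. With TRAIL these sums stay below medium, while the means of all genes on the left lie above it, by differences not called for Dusp6 and Spry2.

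Some loci are shared with other genes, and no source says whether counting used the strand, so reads of such partners cannot be told apart. Dusp1 (ENSMUSG00000024190, chromosome 17, 26505590 to 26562128, GRCm38, minus strand) overlaps Ergic1 on the other strand, which had 24.5 to 32.4 TPM in medium, 44.4 to 58.6 TPM in stimulated cells and 20.3 to 24.3 TPM with TRAIL, an order opposite to that of Dusp1. It also overlaps Gm8225 on the other strand, with 2.03 to 2.87 TPM in medium, 7.41 to 14.3 TPM in stimulated cells, where Dusp1 itself had 17.5 to 18.5 TPM, and 2.66 to 2.96 TPM with TRAIL. Dusp10 (ENSMUSG00000039384, chromosome 1, 184013302 to 184075636, plus strand) overlaps 1700056E22Rik on the other strand, with 5.70 to 7.06, 1.35 to 1.57 and 12.7 to 16.3 TPM, the same order of group means as that of Dusp10. Dusp5 (ENSMUSG00000034765, chromosome 19, 53529109 to 53542431, plus strand) overlaps Gm50394, at up to 1.68 TPM, and Spry1 (ENSMUSG00000037211, chromosome 3, 37639947 to 37644598, plus strand) overlaps Gm42922, at up to 0.892 TPM.

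The relatives of the 10 genes were mostly low or not called. Of the other MAP kinase phosphatases, 3 of 4 were tested. Dusp8, a phosphatase of JNK and p38, was under 1 TPM in medium (mean 0.222 TPM) and in stimulated cells (0.208 TPM) and had 2.95, 3.72 and 3.43 TPM with TRAIL, which all lay above the other 6 libraries. Its log2 difference with TRAIL was 1.85 against Abs alone (SE 0.13, limma adjusted p = 6.0e-07) and 1.83 against medium (limma adjusted p = 8.0e-06), calls that a pseudocount of 5 removed (0.68 in each). Dusp8 passed the filter on low values only through the TRAIL-treated libraries. It was tested only because it was high there, so these p-values are no support for its being higher with TRAIL. Dusp7, an ERK phosphatase, averaged 58.7 TPM in medium and 34.7 TPM in stimulated cells and was called lower with TRAIL than in medium (log2 difference -1.04, SE 0.15, limma adjusted p = 0.00104), a call at the threshold that median-of-ratios scaling (log2 difference -0.86), quantile normalization (-0.92), a pseudocount of 5 (-0.95) and the omission of medium replicate 2 (-0.93) or TRAIL replicate 3 (-0.92) removed. Dusp16, a JNK phosphatase, averaged 7.48, 10.6 and 7.88 TPM and was not called. Dusp9, with means of 0.385, 0.389 and 0.235 TPM, was too low to be tested. Of the remaining Sprouty and SPRED genes, Spred3 averaged 0.655, 1.52 and 0.987 TPM and was not called (on stimulation it was, at 1.07, with a pseudocount of 0.1), Spry4 averaged 0.239, 0.624 and 0.988 TPM and was not tested, and Spry3 was not tested either.

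Of 8 atypical DUSPs tested, which lack the MAPK docking domain, Dusp14 was called higher on stimulation (log2 difference 1.54, limma adjusted p = 1.0e-04) and with TRAIL against medium (1.33, limma adjusted p = 0.00157), calls that a pseudocount of 5 removed (0.63 and 0.53). In each of the 3 comparisons 1 of the 8 was called, beside 31.9%, 30.9% and 4.62% of all genes. Dusp22 averaged 8.22, 15.5 and 4.81 TPM and was called lower with TRAIL against Abs alone (log2 difference -1.52, limma adjusted p = 3.0e-05), and with quantile normalization it was also called higher on stimulation (1.07).

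The next lists hold genes of RAS regulation and of the MAPK cascades. Of the 10 genes for RAS and its activators, 4 were called lower on stimulation and none higher, and with TRAIL against Abs alone 3 were called higher and 1 lower, beside 31.9% and 30.9% of all genes called in either direction. Rasgrp2, a calcium-regulated exchange factor, averaged 384 TPM in medium, 25.7 TPM in stimulated cells and 331 TPM with TRAIL, with log2 differences of -3.86 on stimulation (limma adjusted p = 4.0e-09) and 3.64 with TRAIL against Abs alone (limma adjusted p = 7.6e-09). Hras averaged 14.6, 29.3 and 11.3 TPM and was the gene called lower with TRAIL against Abs alone (log2 difference -1.31, limma adjusted p = 5.1e-06), and its difference on stimulation, 0.95, passed the fold threshold with both scalings (1.04 and 1.13). Rasgrp3 averaged 30.1, 2.15 and 14.5 TPM and was called lower with TRAIL than in medium (log2 difference -1.01, limma adjusted p = 0.00128), a call at the threshold that was lost with both scalings (-0.83 and -0.84), with a pseudocount of 5 (-0.85) and without medium replicate 1 or TRAIL replicate 2 or 3. Of the 7 RAS GTPase-activating proteins tested, 4 were called lower on stimulation and 3 higher with TRAIL against Abs alone, beside 19.5% and 16.6% of all genes. Rasa3 averaged 261, 50.0 and 214 TPM, with log2 differences of -2.40 (limma adjusted p = 2.7e-06) and 2.11 (limma adjusted p = 7.4e-06). The myeloid, B cell and erythroid lists moved in the same directions as Rasgrp2, Rasgrp3 and Rasa3 in the comparisons with stimulated cells, unlike Hras, and their part in these differences was not tested.

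Of the 8 RAF, MEK and ERK genes, 1 was called, the scaffold gene Ksr1. It averaged 14.8, 51.7 and 18.1 TPM, with log2 differences of 1.68 on stimulation (limma adjusted p = 1.0e-04) and -1.40 with TRAIL against Abs alone (limma adjusted p = 3.9e-04). Of the 12 genes of the JNK and p38 cascade, 2 were called higher and 2 lower on stimulation, and 1 higher and 3 lower with TRAIL against Abs alone, a share close to the 31.9% and 30.9% of all genes. The p38 kinase kinase gene Map2k6 averaged 16.6, 2.92 and 18.6 TPM, with log2 differences of -2.17 (limma adjusted p = 3.2e-07) and 2.32 (limma adjusted p = 2.2e-07). Mapkapk2, which encodes a kinase activated by p38, averaged 56.5, 171 and 54.1 TPM, with log2 differences of 1.58 (limma adjusted p = 2.1e-07) and -1.64 (limma adjusted p = 1.8e-07). With TRAIL against medium none of the RAF, MEK and ERK or JNK and p38 genes was called, beside 4.62% of all genes.

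Transcripts that respond to ERK also went apart. Of 12, 5 were called higher and 3 lower on stimulation, 6 higher and 3 lower with TRAIL against Abs alone, and 6 higher and 1 lower with TRAIL against medium, beside 31.9%, 30.9% and 4.62% of all genes called in either direction. Their median log2 differences were 0.15, 1.18 and 0.82. Fos, an immediate early gene, averaged 322 TPM in medium, 6.97 TPM in stimulated cells and 478 TPM with TRAIL, with log2 differences of -5.36 (limma adjusted p = 1.0e-09) and 5.93 (limma adjusted p = 7.8e-10), and its difference of 0.57 between TRAIL and medium was not called. Fos, Ccnd1 and Map2k6 thus fell and rose as the myeloid, B cell and erythroid markers did, and the part of those cells in these differences was not tested. Egr1 averaged 108, 93.6 and 568 TPM and was called higher with TRAIL against Abs alone (log2 difference 2.60, limma adjusted p = 4.2e-07) and against medium (2.39, limma adjusted p = 9.7e-06). Egr3 (53.2, 57.5 and 226 TPM) and Phlda1 (7.47, 8.52 and 34.5 TPM) were likewise called higher with TRAIL against both groups. Egr2 averaged 17.8, 85.6 and 141 TPM, rose on stimulation (log2 difference 2.21, limma adjusted p = 2.1e-07) and was called higher with TRAIL against medium (2.93, limma adjusted p = 5.2e-07), while its difference of 0.71 against Abs alone was short of the fold threshold.

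Myc and Fosl1 were called lower with TRAIL than with Abs alone, and Ccnd1 was called higher. Myc averaged 142, 654 and 196 TPM, with log2 differences of 2.20 on stimulation and -1.73 with TRAIL against Abs alone (limma adjusted p = 6.3e-07). Fosl1 averaged 0.0990, 10.7 and 2.76 TPM, called lower against Abs alone (log2 difference -1.61, limma adjusted p = 5.7e-05) and higher against medium (1.78, limma adjusted p = 2.3e-04), calls that were lost with a pseudocount of 5. Ier3 averaged 5.72, 22.5 and 13.5 TPM and was called higher with TRAIL than in medium (log2 difference 1.08, limma adjusted p = 0.00321), a call lost with a pseudocount of 5 (0.77) and without TRAIL replicate 2 (0.98) or 3 (0.97), and its difference of -0.70 against Abs alone was not called. Ccnd1, the cyclin D1 gene, averaged 13.8, 0.606 and 6.36 TPM, with log2 differences of -3.20 on stimulation and 2.20 with TRAIL against Abs alone (limma adjusted p = 9.9e-08). Its call as lower with TRAIL than in medium lay at the threshold (limma adjusted p = 2.6e-04) and was lost with both scalings (log2 differences of -0.83 and -0.85), with a pseudocount of 5 (-0.72) and without medium replicate 1 or 2 or TRAIL replicate 1 or 3.

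**Figure D5:**
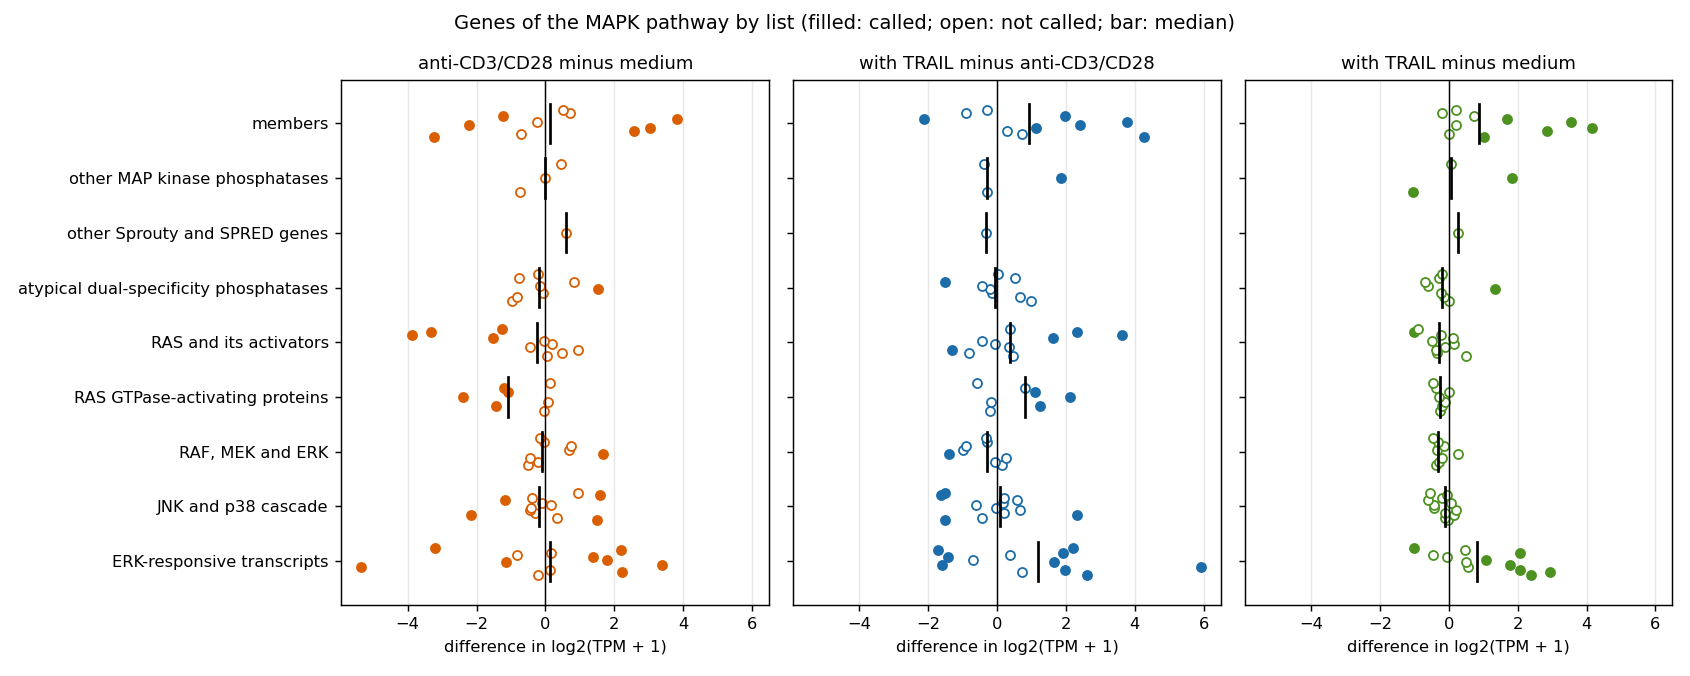
Differences in log2(TPM + 1) of every tested gene among the 10 genes (members) and in each MAPK pathway list, 1 panel a comparison, with filled points for called genes and a bar at the median of each list. The ERK-responsive list spreads from -5.36 to 3.38 on stimulation, while the RAF, MEK and ERK list stays between -0.52 and 1.68.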

How the data were processed

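RNA-seq was measured in 9 libraries of splenic CD4+ T cells, 3 each of medium, stimulated and TRAIL-treated cells, and groups were taken from the sample labels. According to the submitters' processing notes and the methods, the authors trimmed reads with Trimmomatic 0.36 and aligned them with HISAT2 2.1.0, and SAMtools 1.2, StringTie 2.1.2 and DESeq2 are also listed. The notes list GRCh38, a human build, whereas the methods name GRCm38, to which the gene positions in the table correspond. The annotation release is not given in the sources used here. What the authors deposited are TPM values that total 1000000 per library, with a floor of 0.0001 TPM, so depth and counting error are unknown.

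The limma package (version 3.58.1, R 4.3.3; two-sided, moderated with a trend) was fitted to log2(TPM + 1) of all 9 libraries at once, with group as the only term. Genes entered when 3 or more libraries reached 1 TPM, which left 15536. A gene was called at a Benjamini-Hochberg adjusted p under 0.05 and a log2 difference of 1 or more in size. The fit was tested on simulated data. Plots used matplotlib 3.10.9, and tables pandas 2.3.3 under Python 3.11.15. Start regions came from RefSeq (GRCm38.p6), and transcript annotation from GENCODE.

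The members, pathway lists and marker lists were chosen with earlier results of these data known. The text names every member, every gene of the 2 closest family lists, from each other pathway list the called genes with the largest rise and fall in both comparisons with stimulated cells and any called with TRAIL against medium, and the 3 genes most like each member. Map2k1 is named besides these, because it lay at the fold threshold. As alternatives, other pseudocounts, filters and scalings, a fit without trend, a fit of 2 groups, a replicate block, no fold threshold and the omission of each library were run, and 1 filter was added after seeing the data. The consensus NF-kB pattern was added after a match of the other form was seen, and both are reported. The values of 1 marker gene are not reported here.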

Additional observations from a re-analysis of the deposited data

How the results depend on the processing

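Over 20 alternatives the number of the 10 genes called ran from 5 to 9 on stimulation, 6 to 8 with TRAIL against Abs alone and 4 to 6 with TRAIL against medium, beside 6, 6 and 5, and 2 to 4 were called higher with TRAIL against both groups, beside 3. Leaving out each library in turn gave 6 to 6, 6 to 6, 4 to 5 and 2 to 3. The higher ends came from dropping the fold threshold, and 5 on stimulation from a pseudocount of 5 or quantile normalization, both by loss of Spry2. Libraries with the same replicate number did not deviate together (correlations from -0.306 to 0.295), and not every library correlated best with its own number, so the numbers were not taken as a pairing, and a replicate block gave 6, 6, 5 and 3 calls. Of 570 differences of the 10 genes recomputed, 563 kept their direction and their side of the threshold, 4 fell below it and 3 changed sign. Those 3 were Dusp2 with TRAIL against medium, -0.02, -0.06 and -0.06 without medium replicate 1, medium replicate 3 and TRAIL replicate 2. Signs also turned for differences near 0 in Dusp8 on stimulation (0.00 with median-of-ratios scaling, 0.42 with quantile normalization, 0.04 without medium replicate 1 and without stimulated replicate 3), Dusp14 with TRAIL against Abs alone (-0.33 to 0.03 without single libraries, positive without TRAIL replicate 1), and, with TRAIL against medium, Mapkapk2 (0.13 with median-of-ratios scaling, 0.10 with quantile normalization, -0.11 to 0.02 without single libraries, positive without medium replicate 2) and Dusp16 (-0.00 to 0.15 without single libraries, lowest without TRAIL replicate 2). The cause was not tested. Over all genes, calls fell from 4959, 4800 and 718 to 2946, 2883 and 332 with a pseudocount of 5, rose to 10678, 10420 and 5063 without the fold threshold, and reached 1167 with TRAIL against medium with a pseudocount of 0.1. Median-of-ratios scaling moved the median of all genes by 0.167 with TRAIL against medium, and quantile normalization by 0.19 on stimulation and 0.139 with TRAIL against medium.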
